A study of Caenorhabditis elegans with 40 samples.

Results

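The nuclear hormone receptor genes of *C. elegans* were taken as all genes named *nhr-* and a number in the gene tables, without *nhr-23* and *nhr-25*. The rule used names alone and found 275 of 41560 genes. RNA of whole animals had been sequenced in 40 libraries, 5 for each of 8 groups. These were old *npr-8(ok1439)* and old wild-type *N2* animals at 25°C, the same 2 genotypes old at 20°C, young at 25°C and young at 20°C. Old animals were adults of day 9, and young ones adults of day 0 by the sample labels or day 1 by the methods of the study. All groups were fed *E. coli* OP50 and had been kept at their temperature for at least 2 generations, and *npr-8(ok1439)* is 1 deletion allele of a neuropeptide receptor gene, carried by all cells of the animal. The labels do not say whether the 5 libraries of a group came from separate cultures, so p-values measure the spread between these libraries, which may be technical.

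Nuclear hormone receptors are transcription factors with a zinc-finger domain that binds DNA and a domain that can bind a small lipophilic ligand. The family is greatly expanded in nematodes, most of it descended from an ancestor like the vertebrate receptor HNF4, while a few members have direct counterparts in insects and vertebrates. Receptors with a studied role in *C. elegans* link diet, fat stores, vitamin B12, toxins and developmental timing to transcription in tissues such as the intestine, the epidermis and neurons. For most members no role is known.

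Levels are given as CPM, fragments relative to the size of the library after TMM scaling, which compare 1 gene between groups, and as the authors' group FPKM, which also correct for length and compare genes. For old *npr-8(ok1439)* mutants at 20°C the libraries had been listed by transcript, and 224 of the 275 genes could be given a value in each library; the others have the authors' group FPKM there. The libraries held 18690583 to 36883662 fragments. In young *npr-8(ok1439)* mutants at 25°C, library 1 stood apart from its group. Its root mean square distance from the mean of the other libraries was 0.625 on the log2 scale, and 0.417 over the receptor genes. The next largest distance, 0.429, was that of library 2 of young wild-type animals at 20°C. The *npr-8* gene itself had 53 to 93 fragments in the 15 mutant libraries with gene values and 33 to 76 in the 20 wild-type libraries, a count over the whole gene that cannot check the deletion. Markers of other cell types and stages moved strongly between groups. Oocyte and embryo markers summed to 10021 to 11065 CPM in young wild-type animals at 25°C, against 530 to 664 CPM at 20°C, with 8 of 8 called higher. Sperm markers summed to 58 to 80 CPM at 25°C, against 589 to 662 CPM at 20°C, with 8 of 8 called lower. Body wall muscle markers were called lower with age in 8 of 8 at both temperatures. Their part in the changes of the receptor genes was not tested. In whole animals, fewer cells of a type and less RNA per cell cannot be told apart.

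Most receptor genes were weakly expressed. A mean of at least 1 CPM in at least 1 of the 7 groups with gene tables was reached by 182 genes, and 93 stayed below it in every one of these groups. No fragment was seen in 35 libraries for 2 genes. The median gene lay between 1.74 and 3.11 CPM in the 7 groups, and 198 of the 275 genes were deep enough to be tested in at least 1 comparison. On the authors' ce10 coordinates, 130 of the 206 genes with a position were on chromosome V, 30 on IV, 19 on X, 11 on II, 9 on I and 7 on III. In the RefSeq gene order of WBcel235, 132 of the 264 genes found there had another receptor gene as direct neighbour. The authors' intervals exceeded 50000 bases for 62 genes and so can overlap other genes; among the genes described below these were *nhr-6*, *nhr-13*, *nhr-27*, *nhr-41*, *nhr-50*, *nhr-53*, *nhr-54*, *nhr-60*, *nhr-63*, *nhr-71*, *nhr-86*, *nhr-115*, *nhr-127*, *nhr-176*, *nhr-178*, *nhr-216*, *nhr-236*, *nhr-237*, *nhr-274* and *nhr-277*. Here *nhr-50* and *nhr-53* have the same interval, and so do *nhr-178* and *nhr-237*. The use of strand in counting is not given in the sources used here, so reads of overlapping genes could not be told apart.

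The 10 receptor genes with the highest mean FPKM over the 8 groups were *nhr-114*, *nhr-68*, *nhr-49*, *nhr-97*, *nhr-66*, *nhr-86*, *nhr-46*, *nhr-274*, *nhr-27* and *nhr-10*, and their order differed between ages. In old wild-type animals at 20°C, *nhr-49* led with 123 FPKM, followed by *nhr-66* with 74, *nhr-97* with 52.0, *nhr-86* with 49.7 and *nhr-68* with 48.8 FPKM. In young wild-type animals at 20°C, *nhr-114* led with 239 FPKM, followed by *nhr-68* with 204, *nhr-97* with 104, *nhr-49* with 66.2 and *nhr-27* with 62.4 FPKM. These group values carry no error of their own. The summed level of the 275 genes was 1681 ± 38.6 CPM in old wild-type animals at 25°C and 1739 ± 12 CPM in old ones at 20°C, below the 1925 ± 81.0 CPM of young ones at 25°C and the 2474 ± 76.2 CPM of young ones at 20°C (SD, n = 5 each). In *npr-8(ok1439)* mutants the sum was 1510 ± 35.3 CPM when old at 25°C, 2358 ± 254 CPM when young at 25°C and 2574 ± 77.5 CPM when young at 20°C. Library 1 of young mutants at 25°C, with 1905 CPM, lay below the 2428 to 2497 CPM of the other 4.

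Each gene was tested with edgeR's quasi-likelihood test, and its p was adjusted after Benjamini and Hochberg across every gene tested in that comparison. A call required an adjusted p under 0.05 together with a log2 fold change of 1 or more in either direction. In all, 101 of the 198 receptor genes tested were called in at least 1 of 8 comparisons. The matching share of all genes was not counted, so this number describes the list and sets it apart from nothing. The comparisons share groups, so their counts are not independent of each other. In each of the 16 directions the share of receptor genes called at this size was below that of all genes, as the plot of shares called shows. With no minimum size this did not hold in every direction. For temperature in young wild-type animals, 25 of 180 receptor genes were then higher and 122 lower, where 6204 and 7137 of 14976 genes were. There the receptor genes' share was below that of all genes upwards and above it downwards.

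**Figure D1:**
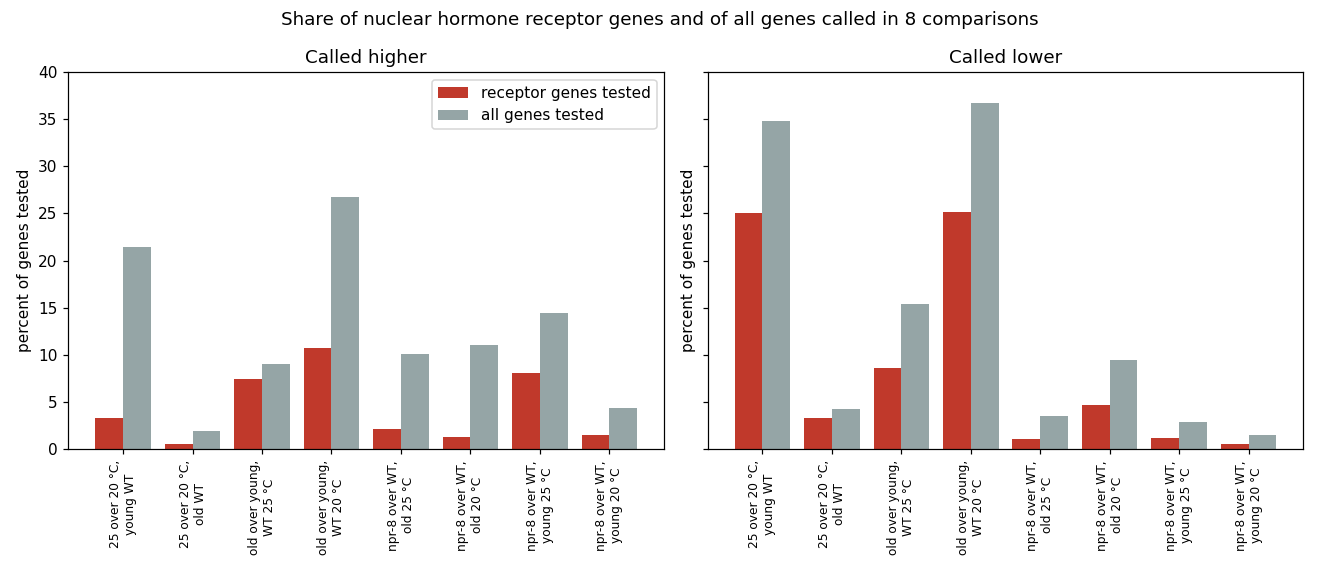
Percent of tested genes called higher (left) and lower (right) in each of 8 comparisons, named on the x axis, for the receptor genes (red bars) and for all genes (grey bars). The highest red bars are those for genes lowered by warmth in the young wild type (25.0%) and by age in the wild type at 20°C (25.1%), beside 34.8% and 36.7% of all genes.

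Temperature changed many receptor genes in young wild-type animals, most of them downwards. At 25°C against 20°C, 6 of 180 tested genes were higher (3.33%) and 45 lower (25.0%), where 21.4% of all genes were higher and 34.8% lower. The median log2 fold change was -0.57, against -0.14 over all genes, and 141 of the 180 genes were below 0. In old wild-type animals the same contrast gave 1 of 182 genes higher and 6 lower, where 1.98% of all genes were higher and 4.25% lower. The gene called higher, *nhr-54*, was at the threshold, with a log2 fold change of 1.02 ± 0.17 (SE) that became 0.99 without library 4 at 25°C, 0.99 without library 2 at 20°C and 0.92 without library 3 at 20°C, which leaves a count of 0.

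Age lowered more receptor genes than it raised at 20°C. In old against young wild-type animals at 20°C, 20 of 187 tested genes were higher (10.7%) and 47 lower (25.1%), where 26.7% of all genes were higher and 36.7% lower. At 25°C, 13 of 175 genes were higher (7.43%) and 15 lower (8.57%), where 9.07% of all genes were higher and 15.4% lower. Scaling by library size alone turned the split at 25°C into 20 higher and 10 lower. The age effects at both temperatures differed for 54 genes by the interaction term, with the change at 25°C above that at 20°C in 41 of 189 genes and below it in 13, where 32% and 22% of all genes were called in these directions.

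Few receptor genes reached the size for a call between the genotypes. With no limit on size, the adjusted p was under 0.05 for 74 of 184 tested genes in old animals at 25°C, 93 of 151 in old ones at 20°C, 103 of 173 in young ones at 25°C and 45 of 192 in young ones at 20°C. Over all genes, 4194 were then higher and 4278 lower of 14380 in old animals at 25°C, and 4514 and 4864 of 12925 at 20°C. In young animals they were 4979 and 3428 of 13959 at 25°C, and 2549 and 2391 of 14872 at 20°C. With both directions counted, the share of receptor genes was below that of all genes in each, but only slightly in young animals at 25°C. By direction, still with no limit on size, it was not always below. In young mutants 98 of 173 receptor genes were higher at 25°C and 37 of 192 at 20°C. In old mutants at 20°C, 74 of 151 were lower. These shares were above those of all genes, and those of the remaining directions were below. Among young animals at 25°C, 14 of 173 genes were higher in *npr-8(ok1439)* mutants (8.09%) and 2 lower (1.16%), where 14.4% of all genes were higher and 2.84% lower. The shift was broader than the calls, since 143 of the 173 genes lay above 0 and the median was 0.41, against 0.06 over all genes. Without library 1 of the mutants, 13 genes were higher and 2 lower, with 147 of 172 above 0. Sperm markers moved in the same comparison, with 106 to 183 CPM in *npr-8(ok1439)*, against 58 to 80 CPM in wild type, and 5 of 7 called higher. Epidermis and molt markers summed to 1736 to 4514 CPM in *npr-8(ok1439)*, against 1906 to 2497 CPM in wild type, with 4 of 8 called higher. Oocyte and embryo markers lay the other way, at 2702 to 7245 CPM in *npr-8(ok1439)*, against 10021 to 11065 CPM in wild type. Their median log2 fold change was -0.73, with 0 of 8 called. Of intestine markers 0 of 7 and of body wall muscle markers 0 of 8 were called, and of neuron markers 1 of 8 was higher. The part of any of these in the shift was not tested. When young, at 20°C, 3 of 192 genes were higher and 1 lower, where 4.39% of all genes were higher and 1.47% lower. The gene called lower, *nhr-277*, had a log2 fold change of -1.08 ± 0.24 (SE), and it lost its call without library 3 of the mutants (-0.98) or library 4 of wild type (-0.91). Among old animals at 25°C, 4 of 184 genes were higher and 2 lower, where 10.1% of all genes were higher and 3.5% lower. The count of lower genes there was 4 without library 5 of the mutants, and also 4 without library 5 of wild type. When old, at 20°C, 2 of 151 genes were higher and 7 lower, where 11% of all genes were higher and 9.49% lower. Without library 3 of old wild-type animals at 20°C, 1 gene was higher.

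The effects of genotype differed by temperature and age. Among young animals the *npr-8(ok1439)* effect at 25°C was above that at 20°C in 13 of 189 genes and below it in 2, where 15.9% and 5.51% of all genes were called. At 25°C the *npr-8(ok1439)* effect in old animals was above that in young ones in 3 of 187 genes and below it in 24, where 9.05% and 11.6% of all genes were called. The median of the second interaction was -0.54 over the receptor genes and 0.02 over all genes. Without library 1 of young mutants at 25°C, 3 genes were above and 23 below. Leaving out library 1 of each group gave 0 above in this interaction, and 1 in place of 2 below in the first.

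**Figure D2:**
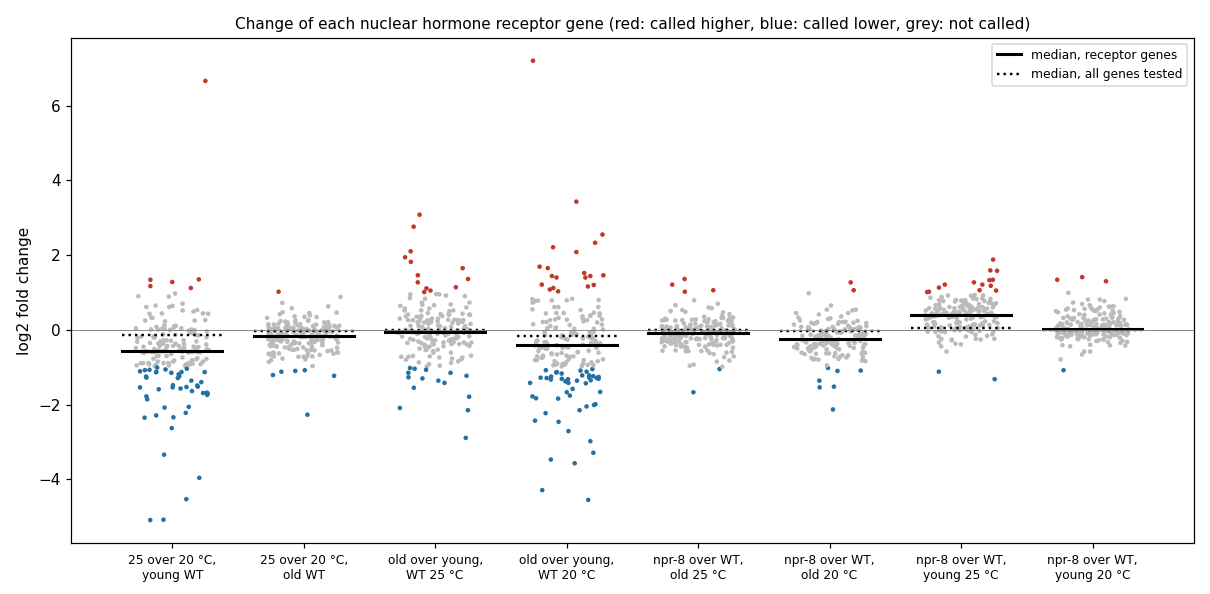
Log2 fold change (y axis) of every tested receptor gene in each of 8 comparisons (x axis), with genes called higher in red, called lower in blue and not called in grey; solid bars are medians of the receptor genes and dotted bars medians of all tested genes. The medians of the receptor genes lie at -0.57 for 25°C over 20°C in young wild-type animals and at 0.41 for *npr-8(ok1439)* over wild type in young animals at 25°C.

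Most receptor genes lie on chromosome V, so medians were also taken by chromosome. In young wild-type animals at 25°C against 20°C, the median log2 fold change was -0.61 over receptor genes on V and -0.55 over all tested genes on V. On the other chromosomes it was -0.43 over receptor genes and -0.06 over all genes. For *npr-8(ok1439)* over wild type when young at 25°C, the medians were 0.43 over receptor genes on V, 0.31 over all genes on V, 0.40 over receptor genes elsewhere and 0.01 over all genes elsewhere. In both of these comparisons the 2 medians lay closer together on V than elsewhere. In old wild-type animals at 25°C against 20°C they did not, with -0.20 over receptor genes and -0.04 over all genes on V, and -0.15 and -0.02 elsewhere. Of 53 neighbouring pairs of receptor genes that were both tested for temperature in young animals, 9 had both genes lower and 12 had 1 lower. These values are given as a description.

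Of the receptors of propionate and vitamin B12 metabolism, *nhr-114* and *nhr-68* fell with age at both temperatures and *nhr-10* was not called. NHR-10 and NHR-68 turn on the propionate shunt, which breaks down propionate when vitamin B12 is scarce. NHR-114 turns on genes of the methionine cycle in low vitamin B12 and protects the germline against some bacterial diets. *nhr-114* (chromosome V, 4181569 to 4191494) had 18, 19.9, 20.0, 18.9 and 18.4 CPM in old wild-type animals at 25°C, against 148, 145, 150, 143 and 123 CPM in young ones. At 20°C it had 19.8, 31.5, 21.4, 20.8 and 13.7 CPM in old wild-type animals, against 262, 304, 260, 259 and 233 CPM in young ones. Every old library lay far below every young one. The log2 fold changes were -2.89 ± 0.06 at 25°C and -3.57 ± 0.20 at 20°C (SE; edgeR adjusted p = 3.8e-17 and 1.6e-08).

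*nhr-114* also had the most negative interaction of genotype and age among the receptor genes called. For old animals at 25°C it had 7.42, 4.82, 4.98, 5.83 and 6.58 CPM in *npr-8(ok1439)*, against 18, 19.9, 20.0, 18.9 and 18.4 CPM in wild type. The groups did not overlap, and the log2 fold change was -1.67 ± 0.10 (SE; edgeR adjusted p = 2e-09). For young animals at 25°C it had 120, 271, 297, 261 and 289 CPM in *npr-8(ok1439)*, against 148, 145, 150, 143 and 123 CPM in wild type. Here 4 mutant libraries lay above all wild-type libraries and library 1 below them. The log2 fold change was 0.78 ± 0.20, below the size for a call, and 0.93 ± 0.06 without library 1. The genotype effect in old animals minus that in young ones at 25°C was -2.46 ± 0.23 on the log2 scale (SE; edgeR adjusted p = 3e-08). In old animals at 20°C, where it has no library values in the mutant, *nhr-114* had 5.77 FPKM in *npr-8(ok1439)* and 23.4 FPKM in wild type, by the authors' values of the group.

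**Figure D3:**
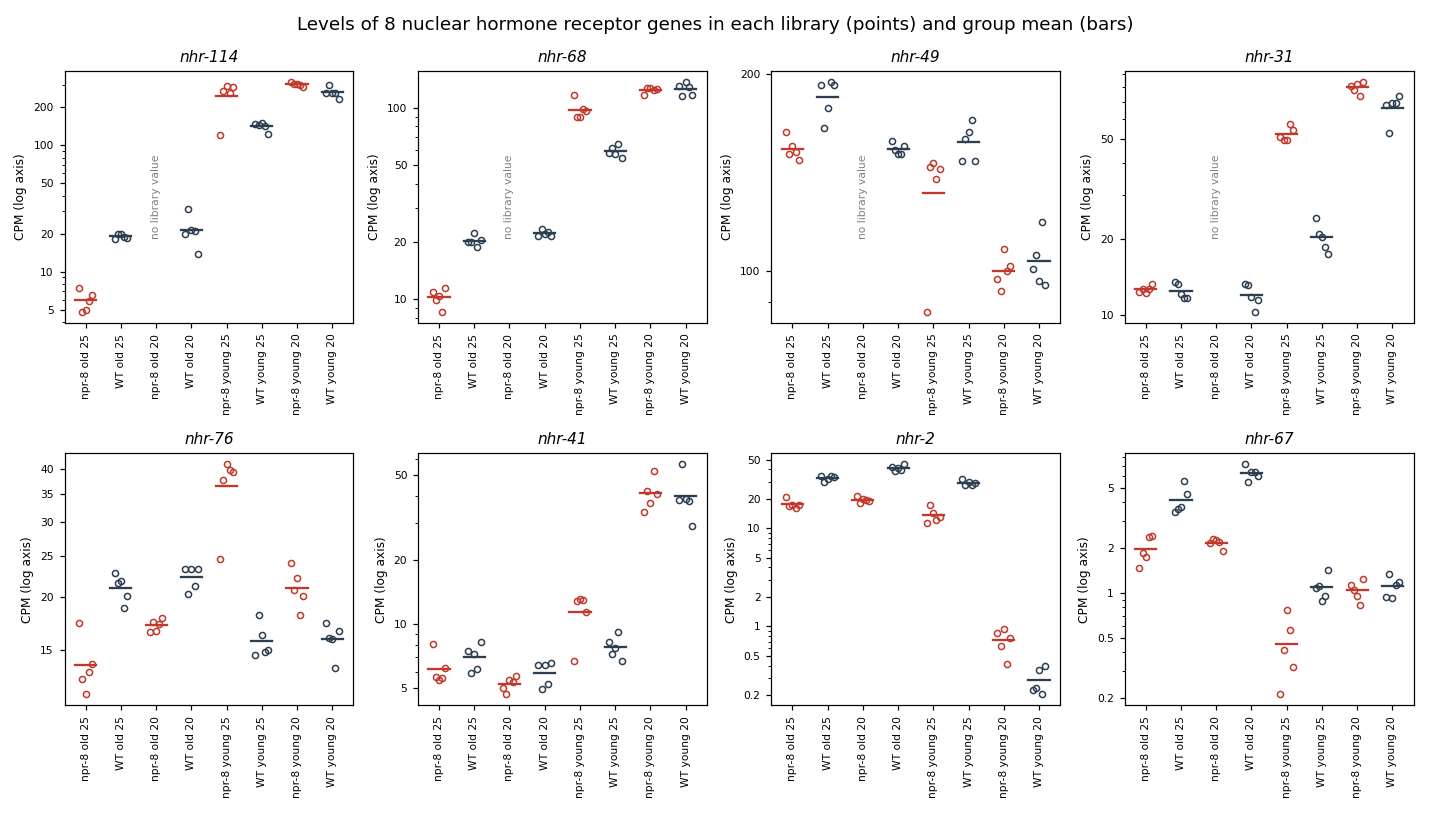
CPM on a log axis of 8 receptor genes in every library (points) and group mean (bars), with *npr-8(ok1439)* in red and wild type in dark blue, and old animals left of young ones. *nhr-114* lies between 4.82 and 7.42 CPM in old *npr-8(ok1439)* mutants at 25°C and between 18 and 20.0 CPM in old wild-type animals, while *nhr-2* lies under 1 CPM in both groups of young animals at 20°C.

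*nhr-68* (chromosome V, 11573441 to 11575536) had 19.8, 20.0, 22.1, 18.8 and 20.4 CPM in old wild-type animals at 25°C, against 58.3, 61.8, 57.6, 64.7 and 54.4 CPM in young ones. At 20°C it had 21.5, 23.2, 22, 22.4 and 21.5 CPM in old wild-type animals, against 125 ± 8.81 CPM in young ones (SD, n = 5). The old groups were close together and the young groups apart, with log2 fold changes of -1.55 ± 0.06 at 25°C and -2.46 ± 0.06 at 20°C (SE). For 25°C over 20°C in young wild-type animals the log2 fold change of *nhr-68* was -1.07 ± 0.06, and -0.96 under DESeq2's size factors, where it was not called. Among old animals at 25°C it had 10.9, 9.95, 10.4, 8.62 and 11.4 CPM in *npr-8(ok1439)*, below all wild-type libraries, at -0.96 ± 0.08, under the size for a call. In young animals at 25°C it was 0.69 ± 0.09 higher in *npr-8(ok1439)* with no overlap, and the interaction of genotype and age was -1.67 ± 0.12.

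*nhr-10* (chromosome III, 7112586 to 7115372), the partner receptor that acts upstream of *nhr-68*, changed little. Its means were 29.6 ± 2.45 CPM in old *npr-8(ok1439)* and 23.2 ± 0.392 CPM in old wild-type animals at 25°C, and 21 ± 1.65 CPM in young wild-type animals at 20°C (SD, n = 5 each). It was called in none of the 8 comparisons, with log2 fold changes between 0.02 and 0.38 in those on age and genotype at 25°C and 20°C.

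Genes of the 2 pathways fell with age as well. Of the propionate shunt, 3 of 5 genes were tested and all 3 fell with age at both temperatures. *acdh-1*, the acyl-CoA dehydrogenase of its first step, had log2 fold changes of -2.75 ± 0.05 at 25°C and -3.92 ± 0.14 at 20°C (SE), and *ech-6*, the enoyl-CoA hydratase of the next step, -1.79 ± 0.04 and -2.79 ± 0.06. When old, at 25°C *acdh-1* averaged 49.6 CPM in *npr-8(ok1439)* and 306 CPM in wild type, at -2.60 ± 0.14, while *ech-6* and *alh-8* were not called. Of the methionine cycle, 6 of 6 tested genes were lower with age at 20°C and 3 at 25°C. *sams-1*, the S-adenosylmethionine synthetase, had log2 fold changes with age of -2.25 ± 0.05 at 25°C and -3.19 ± 0.12 at 20°C, and was lower in old *npr-8(ok1439)* mutants at -1.28 ± 0.14 at 25°C and -1.42 ± 0.11 at 20°C. It was the 1 gene of the cycle called by genotype in old animals, of 6 tested at 25°C and 5 at 20°C. The medians of the cycle there were -0.16 and 0.19. The intestine markers moved too. Their sum was 652 to 718 CPM in old wild-type animals at 25°C, against 3317 to 4114 CPM in young ones, with 5 of 7 called lower. At 20°C it was 900 to 997 CPM in old and 5463 to 6735 CPM in young wild-type animals, with 7 of 7 called lower. For old animals at 25°C it was 422 to 712 CPM in *npr-8(ok1439)* and 652 to 718 CPM in wild type, with 0 of 7 called. For old animals at 20°C 3 of 6 tested were called lower in *npr-8(ok1439)*, with a median log2 fold change of -0.97. The markers' part in these results was not tested.

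**Figure D4:**
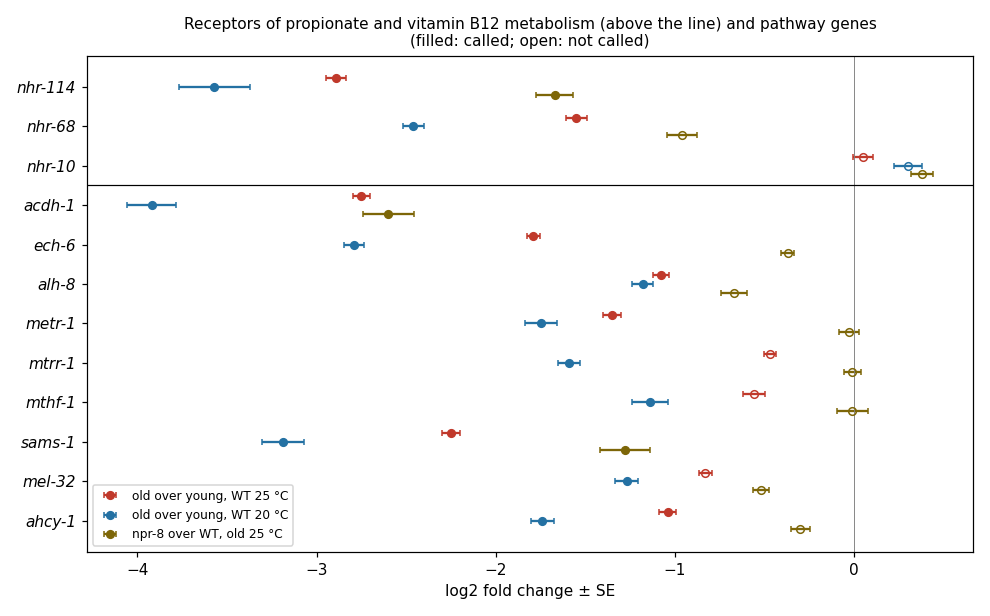
Log2 fold change ± SE (x axis) of the 3 receptor genes of propionate and vitamin B12 metabolism, above the line, and of pathway genes below it, for old over young wild-type animals at 25°C (red), the same at 20°C (blue) and *npr-8(ok1439)* over wild type in old animals at 25°C (brown); filled points were called. *nhr-114* lies at -2.89, -3.57 and -1.67 and *acdh-1* at -2.75, -3.92 and -2.60, while *nhr-10* lies near 0.

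Receptors of fat metabolism, fasting and diet showed few calls. Of 8 such genes, none of the 7 tested was called for temperature in young wild-type animals, where *nhr-66* was not tested. With age at 20°C, 1 rose and 1 fell. *nhr-49* (chromosome I, 9869708 to 9874115), an HNF4-like receptor that adjusts fatty acid desaturation and oxidation to feeding, had 192, 165, 177, 194 and 192 CPM in old wild-type animals at 25°C, against 147, 159, 163, 170 and 147 CPM in young ones. At 20°C it had 158, 153, 151, 151 and 155 CPM in old and 104 ± 9.69 CPM in young wild-type animals (SD, n = 5). The groups overlapped at 25°C and not at 20°C, and the log2 fold changes of 0.23 ± 0.05 and 0.61 ± 0.06 (SE) were both below the size for a call. The groups at 25°C and 20°C did not overlap either, at 0.61 ± 0.06 in young and 0.24 ± 0.04 in old wild-type animals.

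Among the partners of NHR-49, *nhr-66* rose with age at 20°C, with 130 ± 4.97 CPM in old and 63.5 ± 6.08 CPM in young wild-type animals (SD, n = 5 each) and a log2 fold change of 1.08 ± 0.06 (SE). The authors' run had marked *nhr-66* as failed in some tables, so it was left out of the comparisons that use them. Temperature in young wild-type animals was among these. There it had 125, 132, 133, 136 and 127 CPM at 25°C, against 60.3, 70.7, 59.7, 69.2 and 57.4 CPM at 20°C, without overlap. *nhr-80*, which acts with *nhr-49* on fatty acid desaturases, moved the other way with age. It had 7.29, 6.44, 6.54, 7.75 and 9.49 CPM in old wild-type animals at 25°C, against 16.2, 18, 17.6, 16.9 and 14.9 CPM in young ones, with a log2 fold change of -1.15 ± 0.10. At 20°C it fell by 1.84 on the log2 scale, to 6.73 ± 0.569 CPM in old animals, against 25.0 ± 3.80 CPM in young ones. Scaling by library size alone gave -0.93 at 25°C, below the size for a call. *nhr-13*, another partner, was 0.97 ± 0.10 higher for 25°C over 20°C in young animals, with -0.09 ± 0.08 in old ones, and the age effect at 25°C minus that at 20°C was -1.03 ± 0.12, or -0.95 without library 4 of each group.

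*nhr-76* (chromosome IV, 627549 to 633844), through which neuronal signals reach fat stores in the intestine, was the 1 receptor gene of this list called by genotype. Among young animals at 25°C it had 24.5, 37.7, 41, 39.7 and 39.3 CPM in *npr-8(ok1439)*, against 14.6, 18.1, 16.2, 14.8 and 15 CPM in wild type. All mutant libraries lay above all wild-type ones, library 1 nearest to them. The log2 fold change was 1.18 ± 0.14 (SE; edgeR adjusted p = 3.2e-05) and 1.28 ± 0.07 without library 1. In old animals at 25°C the order was turned round, with 17.3, 12.8, 11.8, 13.3 and 13.9 CPM in *npr-8(ok1439)* and 22.8, 21.5, 21.8, 18.8 and 20.1 CPM in wild type, at -0.59 ± 0.10. The interaction of genotype and age at 25°C was -1.78 ± 0.17. *nhr-62*, needed for long life under dietary restriction, *nhr-64* and *nhr-69* were called in none of the comparisons, with sizes up to 0.86.

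Of 10 target genes of NHR-49 and NHR-80, 5 of 9 tested fell and 1 rose with age at 20°C, and 2 fell and 2 rose at 25°C. *fat-7*, a stearoyl-CoA desaturase, fell with age by 2.80 at 25°C and by 3.41 at 20°C on the log2 scale. In old animals *fat-7* averaged 0.918 CPM in *npr-8(ok1439)* and 13.6 CPM in wild type at 25°C, at -3.86 ± 0.13 (SE), and 1.79 CPM in *npr-8(ok1439)* and 21.4 CPM in wild type at 20°C, at -3.58 ± 0.25. Of the targets tested by genotype in old animals, 1 of 9 was called lower at 25°C and 2 of 8 at 20°C, and 0 higher. Their medians were -0.49 and -0.43. *fmo-2*, a flavin-containing monooxygenase, rose with age by 3.0 ± 0.22 at 25°C and 6.71 ± 0.14 at 20°C. *fat-5*, a palmitoyl-CoA desaturase, rose with age at 25°C by 1.19 ± 0.08. The list moved in both directions.

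Receptors that respond to toxins, pathogens, iron, oxygen or mitochondrial stress had few calls in the 8 comparisons. Of 6 genes tested, 1 fell at 25°C in young wild-type animals, 2 fell with age at 20°C and none passed with age at 25°C or in a comparison of genotypes. *nhr-45*, which takes part in the surveillance of mitochondria, had 10.9, 12.4, 9.64, 10.7 and 9.96 CPM in young wild-type animals at 25°C, against 33.9, 25.3, 30.9, 36 and 33.8 CPM at 20°C. The groups were apart, at -1.57 ± 0.11 on the log2 scale (SE). The old wild type had 13.4 ± 0.760 CPM at 25°C and 12.5 ± 1.30 CPM at 20°C (SD, n = 5 each), so that age lowered it at 20°C by 1.31 and not at 25°C (0.32 ± 0.08), with an interaction of 1.66 ± 0.13.

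*nhr-176*, which turns on a cytochrome P450 gene, fell with age at 20°C, to 3.71 ± 0.301 CPM in old wild-type animals, against 8.46 ± 1.06 CPM in young ones, at -1.14 ± 0.11. *nhr-86*, which senses a metabolite of pathogenic bacteria in the intestine, held, in the wild type at 25°C, 47.9 ± 2.76 CPM in old and 40.5 ± 1.90 CPM in young animals, and was called in none of the comparisons. *nhr-14*, linked to iron uptake, averaged 22.4 ± 5.58 CPM in *npr-8(ok1439)* and 12.7 ± 0.823 CPM in wild type when young at 25°C. Its library 1 of the mutants, at 12.5 CPM, fell within the wild-type range and the other 4 lay above it, at 0.79 ± 0.17 on the log2 scale, or 0.92 ± 0.07 without library 1. *nhr-57*, a gene induced by low oxygen, moved by at most 0.81 in size in the 8 comparisons, in young animals at 20°C, where it was higher in *npr-8(ok1439)* without overlap. *nhr-28* was called in none of the 8 comparisons, with -0.73 ± 0.08 for age at 20°C as its largest size. Of 6 detoxification and immunity genes, 4 were tested for age, and 1 rose and 2 fell at each temperature.

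Among 8 receptor genes with counterparts outside nematodes, 4 of the 7 tested fell at 25°C in the young wild type, while 3 fell and 1 rose with age at 20°C among 6 tested. *nhr-41*, related to the vertebrate testicular receptors, had 8.22, 7.25, 7.75, 9.25 and 6.70 CPM in young wild-type animals at 25°C, against 38.4, 56.3, 38.7, 38 and 29.1 CPM at 20°C. The old wild type had 7.01 ± 0.968 CPM at 25°C and 5.94 ± 0.771 CPM at 20°C (SD, n = 5 each). Young animals at 20°C were high and the other wild-type groups low, with a log2 fold change for temperature of -2.34 ± 0.15 in young animals and an interaction of age and temperature of 2.59 ± 0.20 (SE).

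*nhr-85* (chromosome I, 13056139 to 13062090), the relative of Rev-erb and E75 that acts in the timing of larval development, showed the same order. When young, the wild type had 2.73 ± 0.487 CPM at 25°C and 13.5 ± 1.17 CPM at 20°C, at -2.29 ± 0.13, and the old wild type 3.12 ± 0.427 CPM at 25°C and 3.15 ± 0.142 CPM at 20°C. *nhr-8* (chromosome IV, 7711137 to 7714158), which acts in sterol balance and resistance to foreign compounds, fell to 23.9 ± 3.02 CPM at 25°C in young wild-type animals, against 50.4 ± 6.70 CPM at 20°C, at -1.06 ± 0.10 by TMM and -0.96 by DESeq2's size factors, where it was not called. With age *nhr-8* fell by 2.15 at 20°C, while its change at 25°C was -0.22 ± 0.08. *nhr-91*, the relative of germ cell nuclear factor, fell at 25°C in young wild-type animals by 1.28. *nhr-48*, a relative of the dauer receptor DAF-12, held 28.4 to 35.5 CPM in the wild-type libraries at 25°C and was called in none of the comparisons. *nhr-6*, the NR4A receptor needed for the spermatheca, was tested in 2 of the 8 comparisons and called in neither. The comparisons of age were not among these, so its change with age was not tested. Its wild-type libraries at 25°C held 5.16 to 7.04 CPM when old and 1.75 to 2.35 CPM when young. Those kept at 20°C held 6.04 to 8.6 CPM when old and 3.0 to 3.83 CPM when young. Old libraries thus lay above young ones at both temperatures, without overlap. *nhr-111* was too low to be tested in any comparison.

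Epidermis and molt markers, of which 6 of 8 were lower and 2 higher at 25°C in young wild-type animals, summed to 1906 to 2497 CPM there, against 2232 to 3146 CPM at 20°C. Their part in the changes of *nhr-41*, *nhr-85* and *nhr-91* was not tested.

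*nhr-67* (chromosome IV, 11169812 to 11174521), the Tailless-like receptor of the anchor cell and vulva, rose with age and was lower in *npr-8(ok1439)* in 3 of 4 comparisons of genotypes. It had 3.46, 3.63, 3.72, 5.52 and 4.56 CPM in old wild-type animals at 25°C, against 1.07, 1.11, 0.880, 0.948 and 1.42 CPM in young ones. At 20°C it had 7.15, 5.44, 6.36, 6.38 and 5.96 CPM in old and 0.936, 1.34, 0.927, 1.13 and 1.18 CPM in young wild-type animals. Old and young libraries did not overlap, and the log2 fold changes were 1.94 ± 0.17 and 2.55 ± 0.13 (SE). In old *npr-8(ok1439)* mutants it had 1.45, 1.83, 1.73, 2.36 and 2.40 CPM at 25°C and 2.15, 2.27, 2.25, 2.19 and 1.90 CPM at 20°C. All 10 values were below every old wild-type library of their temperature, at -1.05 ± 0.15 and -1.54 ± 0.10. The call at 25°C was lost without library 1 of the mutants (-0.98), without library 4 of wild type (-0.94) and under library size alone (-0.95). In young animals *nhr-67* was lower in *npr-8(ok1439)* at 25°C at -1.32 ± 0.29 and not called at 20°C (-0.08 ± 0.17), and the difference of these effects, -1.25 ± 0.32, was -0.98 and not called without library 1 of each group.

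**Figure D5:**
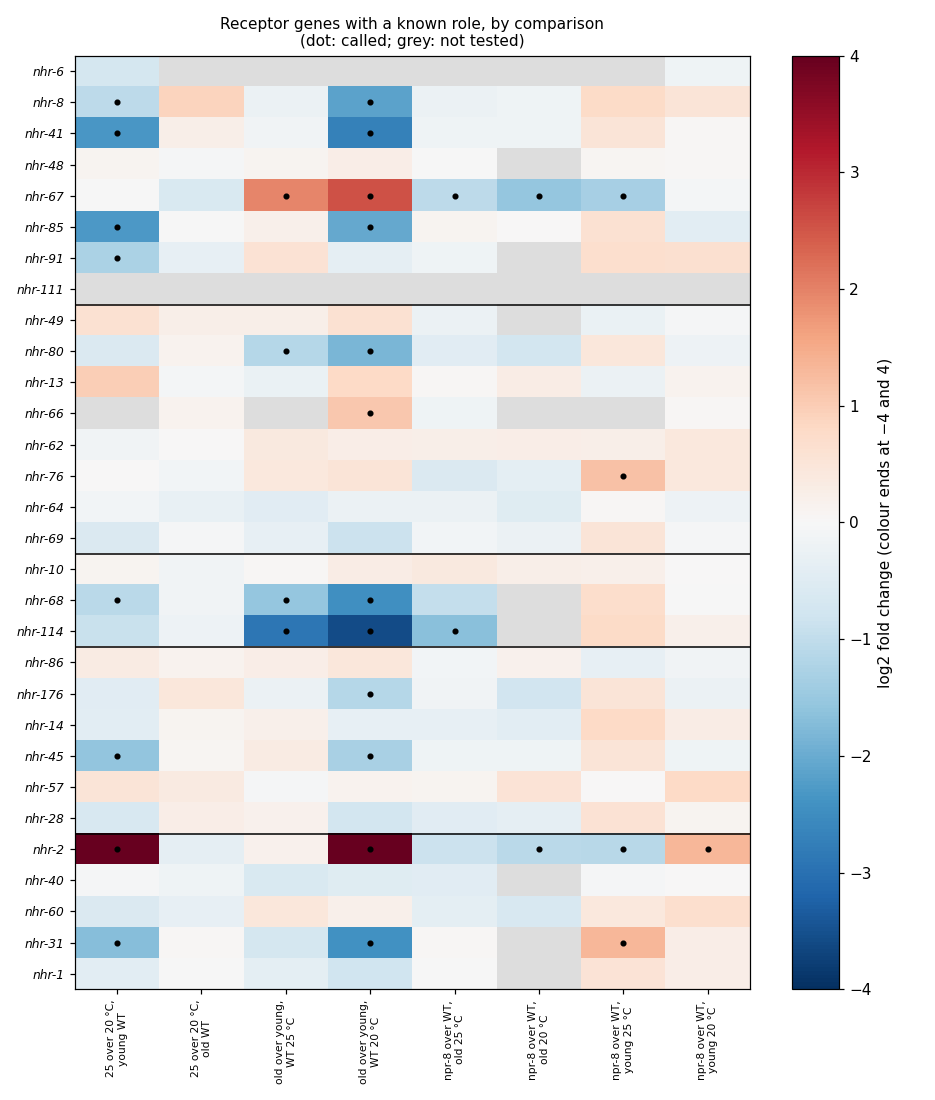
Log2 fold change (colour, with the scale ending at -4 and 4) of the receptor genes with a listed role (rows, in 5 groups) in each of 8 comparisons (columns); a dot marks a call and grey a gene not tested. The strongest red cells are those of *nhr-2*, at 6.66 for temperature in young wild-type animals and 7.20 for age at 20°C.

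*nhr-2* (chromosome I, 5818874 to 5821111), expressed in the early embryo, had the largest changes of the family. It had 31.5, 27.6, 29.5, 27.5 and 29.3 CPM in young wild-type animals at 25°C, against 0.225, 0.236, 0.364, 0.206 and 0.395 CPM at 20°C. The old wild type had 33.9, 30.0, 31.9, 33.8 and 33.5 CPM at 25°C and 42.5, 38.4, 41.7, 39.2 and 44.8 CPM at 20°C. Young animals at 20°C stood alone at under 0.4 CPM, so that temperature gave a log2 fold change of 6.66 ± 0.14 in young and -0.36 ± 0.05 in old animals, and age 7.20 ± 0.13 at 20°C and 0.17 ± 0.05 at 25°C (SE). The oocyte and embryo markers also had their lowest sum in the young wild type at 20°C. In the old wild type they summed to 9874 to 11156 CPM at 25°C and 9059 to 9779 CPM at 20°C. The other 3 groups stood in another order than for *nhr-2*, and the markers' part in this result was not tested.

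The *npr-8(ok1439)* effect on *nhr-2* also depended on the group. When young, at 25°C it had 11.3, 17.5, 14.2, 12.1 and 13 CPM in *npr-8(ok1439)*, against 31.5, 27.6, 29.5, 27.5 and 29.3 CPM in wild type. For young animals at 20°C it had 0.867, 0.631, 0.948, 0.414 and 0.757 CPM in *npr-8(ok1439)*, against 0.225, 0.236, 0.364, 0.206 and 0.395 CPM in wild type. Neither pair of groups overlapped, but the mutants were lower at 25°C (-1.12 ± 0.12) and higher at 20°C (1.34 ± 0.28), an interaction of -2.49 ± 0.28 (SE; edgeR adjusted p = 2.5e-07). In old animals *nhr-2* was lower in *npr-8(ok1439)* at both temperatures, at -0.85 ± 0.07 at 25°C and at -1.09 ± 0.05 at 20°C. Under library size alone the value in young animals at 25°C was -0.97 and not called. When young at 25°C, the oocyte and embryo markers summed to 2702 to 7245 CPM in *npr-8(ok1439)*, against 10021 to 11065 CPM in wild type. The mutants' median sum was 6907 CPM, and 0 of 8 markers were called. When young at 20°C, they summed to 1056 to 1698 CPM, against 530 to 664 CPM, with 6 of 8 called higher. Their part in the changes of *nhr-2* was not tested.

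*nhr-31* (chromosome IV, 8023235 to 8029409), which shapes the tubular excretory canal, changed with temperature, age and genotype. In young animals at 25°C it had 50.8, 49.2, 49.6, 57.2 and 54.1 CPM in *npr-8(ok1439)*, against 24.2, 20.9, 20.4, 18.6 and 17.4 CPM in wild type. Among young animals at 20°C it had 81.0, 77.7, 82.7, 74 and 83.7 CPM in *npr-8(ok1439)*, against 68, 52.5, 69.2, 69 and 73.5 CPM in wild type. The mutants were apart at 25°C and close to wild type at 20°C, where the highest wild-type library lay within 1 CPM of the lowest mutant one, and the log2 fold changes were 1.33 ± 0.10 and 0.27 ± 0.08 (SE). The difference of these effects was 1.04 ± 0.13, and it lost its call with DESeq2's size factors (0.99), without library 4 of each group (0.95) and without library 5 of each group (0.96). Old animals held 12.6 ± 0.445 CPM in *npr-8(ok1439)* and 12.5 ± 0.859 CPM in wild type at 25°C (SD, n = 5 each), with a log2 difference of 0.04 ± 0.07. In wild-type animals *nhr-31* fell with temperature when young by 1.70 and with age by 2.43 at 20°C, and with age at 25°C by 0.70, below the size for a call. *nhr-40*, which acts in body shape and muscle, *nhr-60*, needed in the epidermal seam, and *nhr-1* were called in none of the comparisons.

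Among receptor genes without a role listed here, several had their highest levels in young animals at 20°C. *nhr-234* had 0.159, 0.0398, 0.0419, 0.0903 and 0 CPM in young wild-type animals at 25°C, against 2.40, 2.60, 3.14, 1.92 and 2.37 CPM at 20°C, at -5.09 ± 0.34 on the log2 scale (SE). *nhr-266* had 0.118 ± 0.0677 CPM at 25°C and 4.19 ± 0.690 CPM at 20°C (SD, n = 5 each), at -5.08 ± 0.26, and *nhr-113* 0.0684 ± 0.0479 and 1.69 ± 0.558 CPM, at -4.53 ± 0.43. These 3 genes were low in old wild-type animals as well, and fell with age at 20°C by 4.55, 4.29 and 3.47 on the log2 scale. For *nhr-234* the value with age was -5.80 without library 2 of old wild-type animals, which had 0.318 CPM where the other 4 had at most 0.0399 CPM, and the value for temperature was -5.68 without library 1 at 25°C. *nhr-127* and *nhr-63*, both on chromosome V, differed in that old wild-type animals at 25°C held more than young ones, with 0.471 ± 0.114 and 0.0523 ± 0.0590 CPM for *nhr-127* and 3.05 ± 0.583 and 0.867 ± 0.196 CPM for *nhr-63*. Their age effects at 25°C were 3.08 ± 0.48, or 3.71 without library 5 of the young animals, and 1.82 ± 0.18. *nhr-208* had 0.397, 0.995, 0.587, 0.677 and 0.551 CPM in young wild-type animals at 25°C, against 3.37, 3.03, 2.95, 4.29 and 2.96 CPM at 20°C, at -2.35 ± 0.21, and no library at 25°C reached one at 20°C. *nhr-50* and *nhr-178* were lower at 25°C too, at -1.54 ± 0.12 and -1.24 ± 0.27, and rose with age at 25°C. *nhr-50* had 4.91, 6, 5.52, 6.03 and 6.11 CPM in old wild-type animals at 25°C, against 2.18, 2.23, 2.56, 2.53 and 1.65 CPM in young ones, at 1.36 ± 0.12. At the same temperature *nhr-178* had 1.64, 1.91, 1.1, 2.03 and 1.69 CPM in old wild-type animals, against 0.397, 0.398, 0.670, 0.496 and 0.734 CPM in young ones, at 1.65 ± 0.22. Neither was called higher with age at 20°C, where the values were -0.51 ± 0.10 and 0.03 ± 0.22.

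Age also lowered several genes without a listed role. *nhr-156* had 1.34, 1.09, 1.68, 1.53 and 1.8 CPM in old wild-type animals at 25°C, against 5.95, 7.68, 5.99, 6.18 and 6.01 CPM in young ones, and no old library reached a young one. Its log2 fold changes with age were -2.09 ± 0.13 at 25°C and -2.98 ± 0.14 at 20°C, and those of *nhr-284* -2.15 ± 0.22 and -3.29 ± 0.24 (SE). *nhr-53* had 1.38, 1.5, 0.979, 1.13 and 0.965 CPM in old wild-type animals at 25°C, against 3.65, 5.30, 3.23, 4.87 and 3.58 CPM in young ones, at -1.79 ± 0.17, and at 20°C its age effect of -0.90 ± 0.20 was below the size for a call. Of the genes with the highest FPKM, *nhr-27* had -2.23 ± 0.07 and *nhr-97* -1.24 ± 0.06 with age at 20°C, and neither was called with age at 25°C.

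Some genes were higher in old wild-type animals at 20°C than in other old groups. *nhr-150* had 3.48, 3.71, 3.64, 3.15 and 3.50 CPM in old wild-type animals at 20°C, against 0.150, 0.355, 0.364, 0.344 and 0.434 CPM in young ones, at 3.43 ± 0.19 (SE). It had 0.446, 0.844, 0.548, 0.939 and 0.831 CPM in old wild-type animals at 25°C, and 0.717, 0.724, 0.991, 0.897 and 0.662 CPM in old *npr-8(ok1439)* mutants at 20°C. Old wild-type animals at 20°C thus stood apart from both, at -2.27 ± 0.16 for 25°C over 20°C and -2.13 ± 0.14 for *npr-8(ok1439)* over wild type. *nhr-221*, *nhr-168*, *nhr-99* and *nhr-201* were likewise higher in old wild-type animals at 20°C than at 25°C, with log2 fold changes for 25°C over 20°C of -1.12 ± 0.23, -1.1 ± 0.13, -1.21 ± 0.13 and -0.66 ± 0.10, the last below the size for a call. Among old animals at 20°C *nhr-221*, *nhr-201* and *nhr-99* were lower in *npr-8(ok1439)*, at -1.52 ± 0.25, -1.36 ± 0.12 and -1.02 ± 0.12. Among these, *nhr-168* was at -0.99 without library 3 at 25°C, and *nhr-99* lost its genotype call without library 2 of the mutants (-0.99) or without library 4 (-0.99) or 5 (-0.98) of wild type. *nhr-237* had 0.967, 0.688, 0.626, 0.939 and 1.13 CPM in old wild-type animals at 25°C, against 2.22, 1.77, 1.86, 1.59 and 1.73 CPM at 20°C, at -1.08 ± 0.17, and -0.99 without library 2 or 3 at 25°C. With age at 20°C *nhr-150*, *nhr-221*, *nhr-168* and *nhr-237* were called higher and *nhr-201* was not called, at 0.38 ± 0.11. *nhr-99* instead was called lower with age at 20°C, with 4.62, 3.46, 3.98, 4.82 and 4.96 CPM in old wild-type animals, against 9.85, 9.73, 12.6, 10.4 and 11.3 CPM in young ones, at -1.26 ± 0.12. *nhr-61* rose with age by 2.08 ± 0.10 at 20°C and by 1.01 ± 0.06 at 25°C, where it was 0.98 without library 4 of the young animals.

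Temperature raised 6 of the 180 receptor genes tested in young wild-type animals, *nhr-2*, *nhr-71*, *nhr-161*, *nhr-181*, *nhr-20* and *nhr-12*. *nhr-66*, given above, was not tested there. *nhr-71* had 30.5, 30.4, 28.1, 31 and 30.2 CPM at 25°C, against 11.5, 13.6, 9.40, 12.3 and 12.5 CPM at 20°C, at 1.35 ± 0.09 (SE). *nhr-20* had 23.5 ± 0.481 CPM at 25°C and 10.5 ± 1.46 CPM at 20°C (SD, n = 5 each), at 1.17 ± 0.09. For *nhr-161* the value was 1.34 ± 0.14 and for *nhr-181* 1.28 ± 0.18. All 6 were also called higher with age at 20°C and not called with age at 25°C. Both contrasts use the same young animals at 20°C, so they are not independent.

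Among the 14 receptor genes higher in young *npr-8(ok1439)* mutants at 25°C, 11 lay on chromosome V, which holds 112 of the 173 tested. That is 9.82% of the receptor genes tested on V, where 17.6% of all genes tested on V were called higher. *nhr-115* had 6.34, 4.28, 3.53, 4.41 and 3.90 CPM in *npr-8(ok1439)*, against 1.11, 1.47, 1.17, 1.22 and 1.01 CPM in wild type, at 1.88 ± 0.18 (SE). *nhr-148* had 1.64, 1.38, 1.29, 1.54 and 1.65 CPM in *npr-8(ok1439)*, against 0.556, 0.438, 0.419, 0.677 and 0.367 CPM in wild type, at 1.58 ± 0.18. In both genes all mutant libraries lay above all wild-type ones. For *nhr-220* and *nhr-123* the values were 1.34 ± 0.28 and 1.27 ± 0.23, and for *nhr-112* 1.02 ± 0.15, which lost its call without library 1 (0.97), 3 (0.96) or 5 (0.99) of the mutants and without library 1 (0.97), 4 (0.94) or 5 (0.96) of wild type. *nhr-115*, *nhr-123*, *nhr-220* and *nhr-112* were lower in young wild-type animals kept at 25°C than in those at 20°C, at -2.08 ± 0.15, -2.06 ± 0.23, -1.74 ± 0.28 and -1.59 ± 0.20. The 2 comparisons share the young wild-type libraries at 25°C, so low values there enter both.

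In the other comparisons of genotypes the calls were few. When young, at 20°C *nhr-74* had 5.12, 7.69, 5.59, 9.98 and 7.23 CPM in *npr-8(ok1439)*, against 2.70, 4.02, 3.38, 1.86 and 2.53 CPM in wild type, at 1.30 ± 0.22 (SE) and without overlap. When old, at 20°C *nhr-15* had 3.04, 3.03, 2.97, 3.29 and 2.73 CPM in *npr-8(ok1439)*, against 1.07, 1.06, 1.36, 1.24 and 1.5 CPM in wild type, at 1.27 ± 0.13. For old animals at 25°C *nhr-7* had 3.01, 3.63, 3.62, 3.59 and 3.65 CPM in *npr-8(ok1439)*, against 1.64, 1.75, 1.49, 1.84 and 1.82 CPM in wild type, at 1.06 ± 0.10. *nhr-7* was 0.98 ± 0.11 higher in the mutants at 20°C, below the size for a call, and *nhr-277* was 1.36 ± 0.21 higher at 25°C in old mutants. In old mutants sperm markers summed to at least 107 CPM at 25°C and 166 CPM at 20°C, against at most 35 and 41 CPM in wild type, where the sum of the mutants at 20°C holds 7 of the 8 genes, with 7 of 7 tested called higher at each temperature, and their part in these calls was not tested.

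The receptors not named *nhr-* and the genes that make or carry sterol ligands moved with the same contrasts. *sex-1*, a receptor that counts X chromosomes in sex determination, was 1.25 ± 0.10 higher at 25°C in young wild-type animals and 2.33 ± 0.09 higher with age at 20°C (SE), and lower in *npr-8(ok1439)* at -1.12 ± 0.19 in young animals at 25°C, at -1.21 ± 0.09 in old ones at 25°C and at -1.40 ± 0.05 in old ones at 20°C. It was the 1 gene of 4 tested in its list that was called higher with age at 20°C and for temperature in the young wild type, and 2 were called lower in each, with medians of -1.12 and -1.01. These were *fax-1*, a receptor of axon pathfinding, at -1.85 ± 0.27 for temperature and -1.32 ± 0.30 for age, and *unc-55*, which sets the synaptic pattern of motor neurons, at -1.36 ± 0.30 and -1.66 ± 0.34. *daf-12*, the dauer and steroid receptor, was called in none of the comparisons. Of 8 genes for ligand synthesis and co-regulators, 3 of 7 tested fell at 25°C in young wild-type animals, and 3 fell and 1 rose with age at 20°C. *ncr-2*, a Niemann-Pick C1 sterol transporter, fell at 25°C in young wild-type animals to 3.48 CPM, against 34.4 CPM at 20°C, at -3.29 ± 0.09. It was higher in old *npr-8(ok1439)* mutants by 1.12 ± 0.10 at 25°C and 2.05 ± 0.07 at 20°C. At 20°C 2 of the 5 genes tested were lower there, and the median was -0.78. *daf-36*, the Rieske oxygenase of dafachronic acid synthesis, had 3.21, 3.14, 2.59, 2.79 and 3.02 CPM in old *npr-8(ok1439)* mutants at 20°C, against 6.92, 7.35, 7.01, 8.09 and 6.54 CPM in wild type, at -1.29 ± 0.09, and *dhs-16*, a dehydrogenase of the same pathway, was at -1.23. *daf-9*, the cytochrome P450 of that pathway, fell with age at 20°C by 1.64, and *daf-36* by 1.12.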

How the data were processed

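RNA of whole animals was sequenced (TruSeq Stranded mRNA) in 8 groups of 5 libraries. The methods of the study name alignment to ce10 by HISAT2, then Cuffquant and pairwise Cuffdiff, while the submitters' processing notes name Bowtie2 2.3.4 and Cufflinks 2.2.1. The authors deposited, per gene and library, the estimated count of fragments before Cuffdiff's scaling (expected counts) and FPKM scaled within a table, and the authors' group FPKM. The 12 columns of scaled fragments were not used, nor were the authors' fold changes and p-values. Libraries are numbered by the tables' own index, and whether this is the number in the labels is not stated.

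Expected counts were rounded. For *npr-8(ok1439)* over wild type when old at 20°C, listed by transcript, genes were rebuilt as sums of transcripts, assigned by RefSeq accession or else by equal values of the wild-type libraries in the gene table. Of 13851 genes averaging 10 fragments or more, 10819 were matched by accession and 1596 by counts. Of 184 such receptor genes, 137 and 13 were matched and 34 not. Genes with a failed status in a table were left out there. The FPKM of library 4 of young wild-type and library 3 of young *npr-8(ok1439)* animals at 25°C were 0.134 to 0.157 of their table's median per fragment, which lowers the group FPKM of young animals at 25°C and touches no count test.

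Tests used edgeR 4.0.16 in R 4.3.3 (filterByExpr minimum count 10 and total 15, TMM, robust quasi-likelihood fit, two-sided F test, prior count 0.125), with Benjamini-Hochberg adjustment over all genes of a comparison. SE was taken as |log2 fold change| / √F. Interactions were fitted over 4 groups. CPM of all 40 libraries share 1 TMM scaling. The steps were tested on simulated data. Alternatives were DESeq2 1.42.0 and its size factors, library size alone, no filter on low counts, no minimum size, all 35 libraries with gene tables in 1 fit, limma 3.58.1 on log2(FPKM + 1) and log2(FPKM + 0.1), accession matches alone, and each library left out.

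The members and lists were chosen with earlier results of these data known. Named were, in each comparison, the 5 called genes with the largest and the 5 with the smallest change among those without overlap and with at least 1 CPM, the 10 with the highest FPKM, the 3 largest and 3 smallest of each interaction, and the role lists; others were named after their values were seen. No sequence was printed, since no genome of the build ce10 was used here.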

Additional observations from a re-analysis of the deposited data

Results flagged for a closer look

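In 185 groups of 5 libraries, those of 22 receptor genes and of the summed levels, 1 library lay further from the rest than Dixon's 95% limit in 16. For independent groups chance gives about 1 in 20. The 185 groups come from the same 40 libraries and are not independent, so their count cannot be compared with that rate. The ratio of gap to range is given for each. In young *npr-8(ok1439)* mutants at 25°C, library 1 was the lowest for the summed level (0.883), *nhr-49* (0.865), *nhr-66* (0.858), *nhr-76* (0.8), *nhr-114* (0.797) and *nhr-41* (0.723). In old *npr-8(ok1439)* mutants at 25°C, library 1 was the lowest for *nhr-7* (0.906) and the highest for *nhr-74* (0.802) and *nhr-2* (0.735), and library 4 was the highest for *nhr-85* (0.791). In old wild-type animals at 20°C, library 2 was the highest for *nhr-234* (0.993), whose other 4 libraries were at or under 0.0399 CPM, and library 3 for *nhr-45* (0.788). In young *npr-8(ok1439)* mutants at 20°C, library 1 was the lowest for *nhr-68* (0.727). Of young wild-type animals, library 5 at 25°C was the lowest for *nhr-114* (0.741), and library 2 at 20°C for *nhr-31* (0.738) and *nhr-10* (0.732).

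Effects under the same contrast differed between groups by the interaction term. The age effect in wild-type animals at 25°C minus that at 20°C was 4.15 on the log2 scale for *nhr-113*, 4.12 for *nhr-234* and 3.38 for *nhr-127*, and -7.0 for *nhr-2*, -2.02 for *nhr-181* and -1.94 for *nhr-150*. The first 3 genes averaged under 0.1 CPM in the young wild type at 25°C. The *npr-8(ok1439)* effect in young animals at 25°C minus that at 20°C was 2.53 for *nhr-266*, 2.29 for *nhr-216* and 1.95 for *nhr-277*, and -2.49 for *nhr-2* and -1.25 for *nhr-67*. The *npr-8(ok1439)* effect at 25°C in old minus young animals was 1.93 for *nhr-266*, 1.24 for *nhr-236* and 1.15 for *nhr-15*, and -2.46 for *nhr-114*, -2.19 for *nhr-172* and -1.87 for *nhr-235*. In the last of these, without library 1 of each group, *nhr-15* was at 0.80, *nhr-236* at 0.91 and *nhr-266* at 1.86, and none was called. *nhr-236* also lost its call without library 5 of each group (adjusted p = 0.075), and *nhr-266* without library 3 (1.73) or 4 (1.25) of each group, while it was at 2.63 without library 2. In the first of these interactions *nhr-234* was at 5.08 without library 2 of each group and *nhr-127* at 4.21 without library 5, both called. Without library 1 of each group, *nhr-216* was at 1.88 and *nhr-67* at -0.98 in the interaction of genotype and temperature, and neither was called.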

How the results depend on the processing

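Counts are given as genes called higher and lower. Over the alternatives, no value reversed, 283 counts stayed within 1.5 times and 71 moved. Of the single values, 2587 kept their side of the threshold and 182 lost the call. The 2587 include the setting with no minimum size, which reuses the main fit, so that a called value keeps its call there by construction. Without the filter on low counts they were 16 and 69 for temperature in young wild-type animals and 3 and 14 in old ones, 36 higher for age at 20°C and 30 higher at 25°C. For *npr-8(ok1439)* over wild type they were then 7 and 3 (young, 20°C), 24 and 4 (young, 25°C), 6 and 12 (old, 20°C) and 12 higher (old, 25°C), and 4 lower in the interaction of genotype and temperature. Over all genes, without the filter, temperature gave 3923 and 6160 in young and 421 and 902 in old animals, and age 5000 and 2145 higher. Genotype gave 860 and 281, 2805 and 558, 1770 and 1578 and 2093 higher in the same order, and that interaction 878 lower. With no minimum size the counts were 25 and 122 for temperature in young and 18 and 74 in old animals, 47 and 107 for age at 20°C, 54 and 64 at 25°C, and for genotype 37 and 8, 98 and 5, 19 and 74, and 24 and 50 in the same order. Over all genes they were 6204 and 7137 of 14976 tested for temperature in young and 3199 and 3676 of 13693 in old animals. With age they were 6507 and 7415 of 15329 at 20°C and 5165 and 5475 of 13849 at 25°C. For genotype, in the same order, they were 2549 and 2391 of 14872, 4979 and 3428 of 13959, 4514 and 4864 of 12925, and 4194 and 4278 of 14380. With no minimum size the 3 interactions gave 92 and 34 (age by temperature), 69 and 9 (genotype by temperature) and 7 and 106 (genotype by age) receptor genes. Over all genes these were 6529 and 6330 of 15614, 4549 and 3205 of 15472, and 4076 and 4012 of 15090.

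On log2(FPKM + 1), limma gave 1 higher for temperature in young animals, 27 lower for age at 20°C, and for genotype 1 and 0, 0 and 0, 0 and 4, and 0 higher. Over all genes these were 1299 higher, 4672 lower, and for genotype 493 and 110, 140 and 51, 1194 and 714, and 926 higher. On log2(FPKM + 0.1) limma gave 1 higher for temperature, and for genotype 0 lower, 0 and 0, 1 higher and 2 higher. Over all genes these were 1333 higher, and for genotype 199 lower, 128 and 22, 1411 higher and 1334 higher. Leaving out the 2 libraries with low FPKM, chosen after seeing the data, limma gave 23 lower for temperature and 2 and 1 for genotype in young animals at 25°C. Over all genes these were 3970 lower, and 812 and 316. Library size alone gave 20 higher for age at 25°C, 1 lower for genotype at 25°C in young and 1 lower in old animals, and 23 higher for genotype by temperature. It moved the median of all genes to -0.31 for temperature in young animals, 0.20 for age at 25°C and 0.24 for genotype in young animals at 25°C, with the receptor genes at -0.74, 0.15 and 0.58. DESeq2's size factors put these medians for temperature at -0.03 and -0.46. A scaling moves both medians alike; their difference for temperature, -0.43, was -0.26 without the filter on low counts and -0.54 on log2(FPKM + 0.1). They turned the split for genotype in old animals at 20°C into 3 and 6, and library size alone that at 25°C into 4 and 1. All 35 libraries in 1 fit gave 20 higher for age at 25°C and 5 lower for genotype in old animals at 25°C, and accession matches alone 1 higher in old animals at 20°C. The causes were not tested.

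Leaving out 1 library gave 0 to 1 higher for temperature in old animals, 0 to 1 lower for genotype in young animals at 20°C, 1 to 3 higher in old ones at 20°C and 2 to 4 lower at 25°C, 1 to 3 lower for genotype by temperature and 0 to 3 higher for genotype by age. No paired analysis was possible because the tables number the libraries by an index of their own, not stated to be the replicate number of the labels. Below about 10 fragments in a library, genes were not tested, which limits the 77 receptor genes tested in no comparison.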
